A study of Mus musculus with 27 samples.

Results

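The genes described here are 10 components of the circadian clock, taken from the table of raw read counts by symbol: Arntl, Npas2, Per1, Per2, Per3, Nr1d1, Nr1d2, Dbp, Tef and Gm129, the older symbol of Ciart. They are 10 of the 23420 symbols in the table, and all 10 were found. RNA came from the colon and the jejunum (a stretch of small intestine between duodenum and ileum) of C57BL/6 mice given 15% EtOH or water for 8 weeks, and was read from the 3′ end of the transcript. Each segment was sampled as whole tissue and as organoids, cultures of gut epithelium grown from mice of either diet. The 8 groups held 2 ethanol and 2 control libraries of colon organoids, 4 and 4 of jejunum organoids, 4 and 4 of colon tissue, and 4 and 3 of jejunum tissue. The labels give no age, sex or hour of collection for any library, and none for the culture medium of the organoids. They give a donor number, and the same numbers recur under both diets, so that a number does not name 1 mouse in the whole study. The p-values below rest on the spread between libraries within groups. For each gene all groups of a fit share 1 estimate of it, so that it is not the spread of the compared groups alone. Nothing in the labels says how many separate mice or cultures stand behind the numbers.

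The clock is a loop in which transcripts and proteins rise and fall over the day in nearly every cell. BMAL1, the product of Arntl, pairs with CLOCK or with its relative NPAS2 and switches on genes that carry an E-box, among them the Per genes, Nr1d1, Nr1d2, Dbp, Tef and Ciart. The PER proteins, together with the cryptochromes, repress BMAL1 and its partner, CIART also represses them, and the nuclear receptors REV-ERBα (Nr1d1) and REV-ERBβ (Nr1d2) repress Arntl and Npas2. In a tissue with a running clock Arntl and Npas2 therefore peak at about the time when Nr1d1 and Dbp are at their lowest, and the gut epithelium is known to keep such a rhythm.

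The short stretches below, credited to RefSeq on GRCm38.p6, are shown because they hold the letters through which the loop is known to act. RefSeq start sites gave 12 windows of 300 bases for 9 of the 10 genes. The search covered both strands for the E-box CACGTG, the D-box TTANGTAA that DBP and TEF bind, the core TAGGTCA of the element bound by ROR and REV-ERB receptors, and the cyclic AMP element TGACGTCA. Of 32851 promoter windows of this length, 7.15% held the E-box, 2.32% the D-box, 2.61% the receptor core and 1.79% the cyclic AMP element. The capitals mark the match, each stretch reads 5′ to 3′ on the strand of its gene, and no matches overlapped.
Gm129, chr3:95882255-95882356, minus strand: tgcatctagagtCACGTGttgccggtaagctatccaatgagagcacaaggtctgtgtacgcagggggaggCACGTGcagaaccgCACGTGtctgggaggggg
Per1, chr11:69098771-69098800, plus strand: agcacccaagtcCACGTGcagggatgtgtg
Tef, chr15:81802534-81802563, plus strand: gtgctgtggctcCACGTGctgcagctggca
Tef at its other start, chr15:81811264-81811293, plus strand: cacctggcccagCACGTGtctacatcgttt
Per3, chr4:151044804-151044882, minus strand: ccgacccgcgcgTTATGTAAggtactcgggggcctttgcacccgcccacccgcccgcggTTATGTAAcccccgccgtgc
Arntl, chr7:113207530-113207558, plus strand: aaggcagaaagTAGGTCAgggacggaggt
The Gm129 window held 3 E-boxes, 116, 58 and 44 bases before the start, and 3 of the 9 genes held at least 1. Per3 held 2 D-boxes. The receptor core lay 30 bases after a start of Arntl, the gene that REV-ERB represses. The windows of Npas2, Nr1d1, Nr1d2 and Dbp held none of the 4 motifs, and the cyclic AMP element was in no window.

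The libraries held 1337068 to 16312562 counts. Rn45s, the ribosomal precursor RNA, took 18.3 to 84.3% of them and 53.4 to 84.3% in jejunum tissue, which left 684906 to 7606668 counts for all other genes. Levels are given as counts per 1000000 counts outside Rn45s (CPM), where 1 count was worth 0.131 to 1.46 CPM. Epithelial markers (7 genes) summed to 6863 to 10891 CPM in colon organoids and 4226 to 6705 CPM in colon tissue. In jejunum they were lower in organoids, at 4822 to 6054 CPM, than in tissue, at 6569 to 8339 CPM. The smooth muscle markers (7 genes) summed to 0.98 to 34.2 CPM in organoids. In tissue they summed to 3507 to 19633 CPM in colon and 253 to 2027 CPM in jejunum, so that this list matches the labelled kinds of sample. Immune markers (6 genes) did not separate the kinds in colon. They summed to 477 CPM in ethanol colon organoid library 1, above the 106 to 226 CPM of colon tissue. Both control colon organoid libraries stand apart: they held 11779 and 9950 detected genes, against 15382 and 13541 in ethanol colon organoids, and 4 clock genes were at 0 in 1 of the pair. Npas2 and Per3 were at 0 in library 1 and at 23.2 and 42.8 CPM in library 2, while Per2 and Dbp were at 24.6 and 30.0 CPM in library 1 and at 0 in library 2. Calls that came or went with either of them left out are named or counted with the results.

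The activator Arntl stood lower in organoids than in tissue in both segments and under both diets. In ethanol colon organoids it was at 13.0 and 15.6 CPM, and in ethanol colon tissue at 70.3, 56.5, 59.9 and 47.6 CPM. In control colon organoids it was at 9.33 and 24.4 CPM, and in control colon tissue at 53.5, 70.7, 48.6 and 51.4 CPM. No organoid library reached the lowest tissue library of either segment. Ethanol jejunum organoids held 16.1, 15.1, 16.5 and 13.1 CPM, against 68.6, 82.9, 121 and 134 CPM in ethanol jejunum tissue. Control jejunum organoids held 14.7, 16.7, 13.1 and 13.9 CPM, against 103, 96.4 and 74.2 CPM in control jejunum tissue. The level in jejunum organoids was narrow, 15.2 ± 1.52 CPM with ethanol and 14.6 ± 1.53 CPM in controls (SD, n = 4 each). In bulk RNA, fewer cells of a type and less RNA per cell cannot be told apart.

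By edgeR's quasi-likelihood test, with p-values adjusted over all genes tested, the log2 fold change of Arntl between organoids and tissue was -2.01 ± 0.35 (SE) in ethanol colon (edgeR adjusted p = 9.01e-05) and -2.10 ± 0.36 in control colon (edgeR adjusted p = 4.96e-05). It was -3.04 ± 0.26 in ethanol jejunum (edgeR adjusted p = 5.66e-10) and -2.87 ± 0.27 in control jejunum (edgeR adjusted p = 3.36e-09). Arntl was called lower under all 17 alternative settings in either jejunum comparison, with values of -3.29 to -2.74 for ethanol and -3.08 to -2.64 for controls. In ethanol colon it was called under all 15. In control colon it was called under 14 of 15, the exception being limma-voom with sample weights (-2.23, limma adjusted p = 0.211).

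Npas2, which can stand in for CLOCK as the partner of BMAL1, followed the same direction. It was at 2.81 and 8.18 CPM in ethanol colon organoids, against 24.8, 27.3, 37.6 and 28.3 CPM in ethanol colon tissue. Control colon organoids held 0 and 23.2 CPM, against 30.6, 39.6, 34.6 and 27.2 CPM in control colon tissue. The organoid ranges lay below the tissue ranges here too, with 1 control organoid library near the lowest tissue library. Ethanol jejunum organoids held 14.7, 8.68, 9.89 and 9.89 CPM, against 77.2, 70.1, 74.3 and 109 CPM in ethanol jejunum tissue. Control jejunum organoids held 15.5, 17.6, 7.34 and 12.2 CPM, against 87.1, 55.5 and 66.9 CPM in control jejunum tissue.

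The log2 fold change of Npas2 was -2.53 ± 0.68 in ethanol colon (edgeR adjusted p = 0.00589), -2.13 ± 0.68 in control colon (edgeR adjusted p = 0.0130), -3.21 ± 0.47 in ethanol jejunum (edgeR adjusted p = 2.30e-06) and -2.65 ± 0.48 in control jejunum (edgeR adjusted p = 5.22e-05). Both jejunum calls held under all 17 alternatives. In ethanol colon the call was lost without ethanol organoid library 1 (-1.88, edgeR adjusted p = 0.116), and in control colon without control organoid library 1 (-0.88, edgeR adjusted p = 0.168), while without library 2, the group then being at 0, it stayed called.

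**Figure D1:**
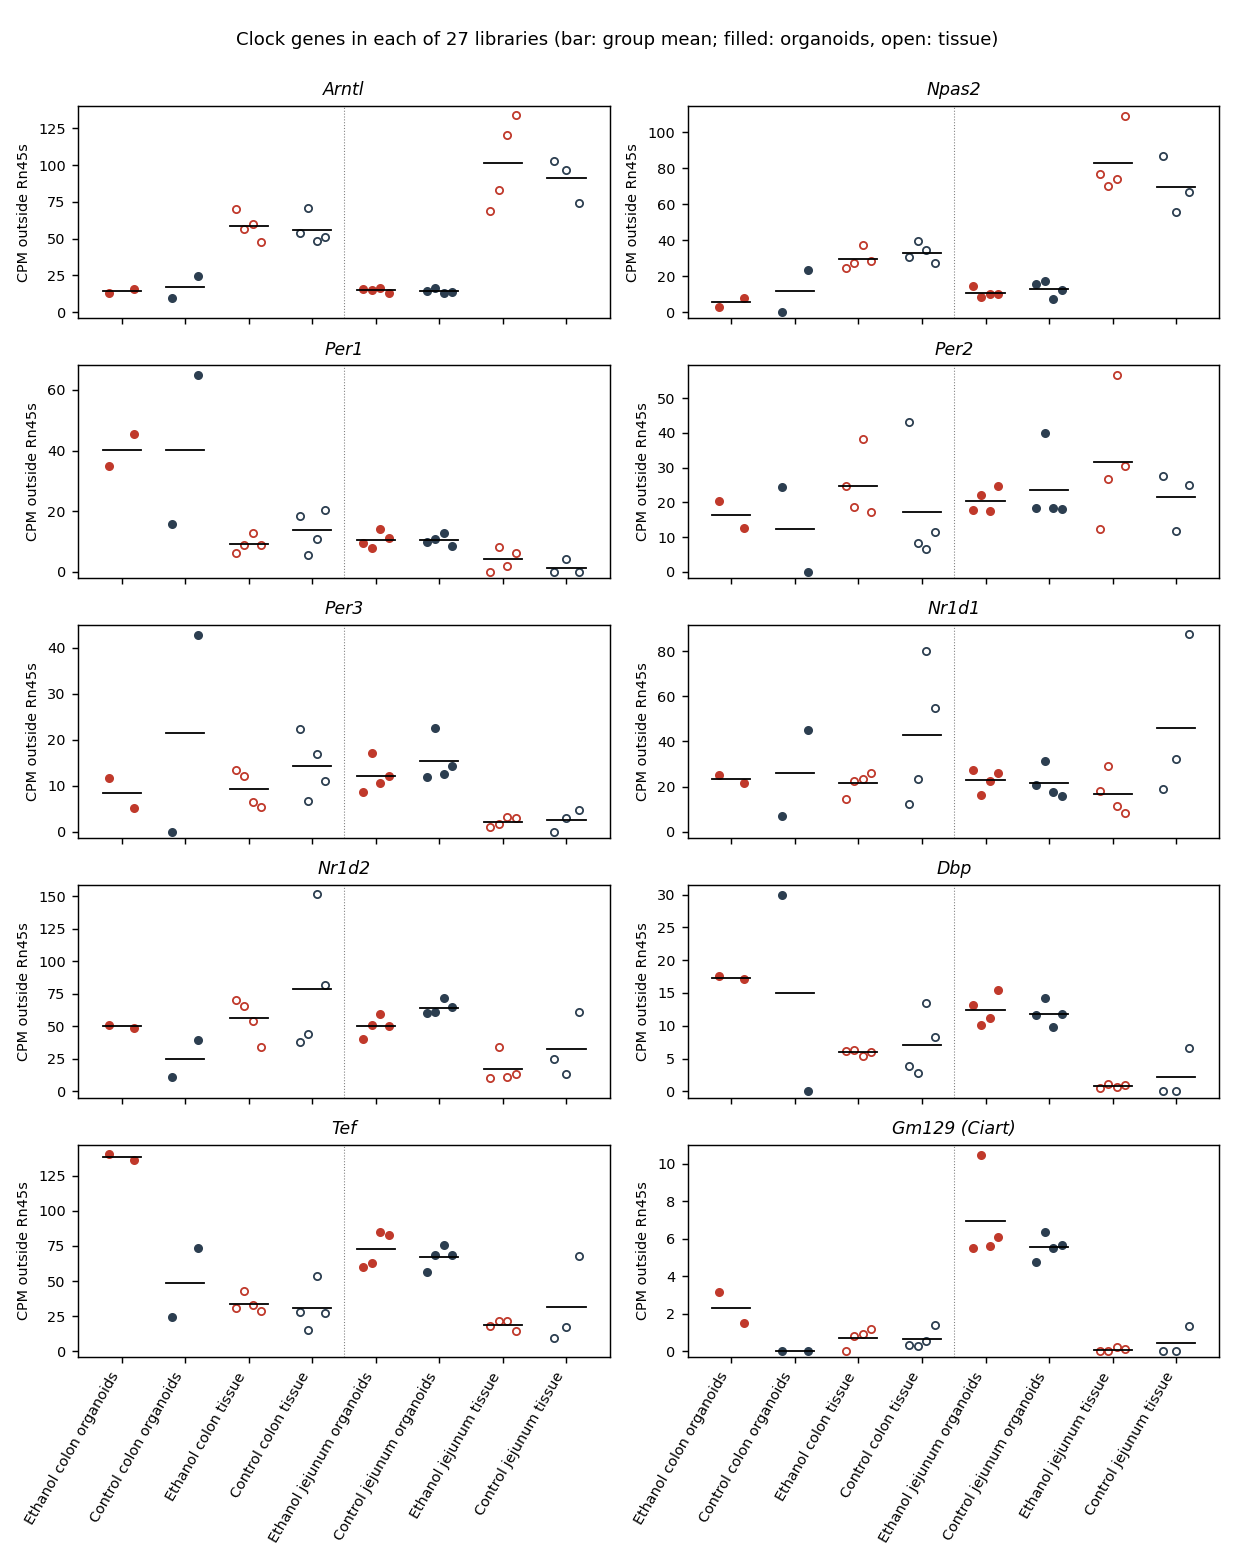
Level of each clock gene in every library, in CPM outside Rn45s (linear axes that differ between panels). Points are libraries, bars are group means, filled points are organoids and open points tissue, red is ethanol and dark blue control; colon groups stand left of the dotted line. Arntl and Npas2 are low in all organoid libraries, while Tef, Dbp and Gm129 are highest in organoids of the jejunum or colon.

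The Per genes, which encode repressors of the loop and are switched on through E-boxes, did not share a direction. Per1 was at 34.8 and 45.3 CPM in ethanol colon organoids, against 6.14, 8.91, 12.8 and 8.79 CPM in ethanol colon tissue, with the ranges apart. Control colon organoids held 15.7 and 64.8 CPM, against 18.6, 5.65, 10.97 and 20.3 CPM in control colon tissue, and these ranges overlapped. In jejunum, ethanol organoids held 9.43, 7.77, 14.2 and 11.3 CPM, against 0, 8.23, 1.94 and 6.31 CPM in ethanol tissue. Control jejunum organoids held 9.95, 10.8, 12.8 and 8.47 CPM, against 0, 4.38 and 0 CPM in control jejunum tissue.

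Per1 rose in ethanol colon organoids, by 2.14 ± 0.66 on the log2 scale (edgeR adjusted p = 0.0146, but 0.0844 without ethanol organoid library 2). It also rose in control jejunum organoids, by 3.25 ± 1.02 (edgeR adjusted p = 0.00929). The tissue side of that comparison rested on 3 counts, and the ratio of pooled CPM was 12.4 with a 95% exact counting interval of 4.19 to 60.9. The call was lost without control jejunum tissue library 1 (2.55, edgeR adjusted p = 0.0624) or library 3 (2.50, edgeR adjusted p = 0.0706). In control colon the value was 1.21 ± 0.68 (edgeR adjusted p = 0.145, and 0.0371 without control organoid library 1), and in ethanol jejunum 0.98 ± 0.59 (edgeR adjusted p = 0.166).

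Per3 stood higher in jejunum organoids than in jejunum tissue. Ethanol organoids held 8.65, 17.1, 10.5 and 12.2 CPM, against 0.95, 1.59, 3.24 and 3.02 CPM in ethanol tissue, and control organoids 11.97, 22.5, 12.6 and 14.3 CPM, against 0, 2.92 and 4.64 CPM in control tissue. The ranges were apart in both diets. Per3 rose by 2.06 ± 0.71 with ethanol (edgeR adjusted p = 0.0162, called under all 17 alternatives) and by 2.35 ± 0.92 in controls (edgeR adjusted p = 0.0338). The control call was lost in 6 of 17 alternatives, among them without control tissue library 1 (1.71, edgeR adjusted p = 0.154), without control tissue library 2 (2.37, edgeR adjusted p = 0.0693) and without control organoid library 2 (2.13, edgeR adjusted p = 0.0687). In colon Per3 was at 11.6 and 5.20 CPM in ethanol organoids, against 13.4, 12.1, 6.47 and 5.27 CPM in ethanol tissue, and the 0 and 42.8 CPM of control organoids spanned the 22.4, 6.79, 17.0 and 10.96 CPM of control tissue. Neither colon comparison passed (-0.04 ± 0.83 with ethanol and 0.15 ± 0.83 in controls, edgeR adjusted p = 0.983 and 0.902), though the control one was called lower without organoid library 2, when the organoids are at 0 (edgeR adjusted p = 0.000943).

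Per2, the partner of Per1 in the repressor complex, passed in none of the comparisons between organoids and tissue by the edgeR fit of all libraries. Its levels were 17.5 to 24.7 CPM in ethanol jejunum organoids, against 12.4 to 56.6 CPM in ethanol jejunum tissue, and 18.03 to 39.9 CPM in control jejunum organoids, against 11.7 to 27.6 CPM in control jejunum tissue. Colon ranges overlapped as well, with 20.4 and 12.6 CPM in ethanol organoids against 17.3 to 38.3 CPM in ethanol tissue, and 24.6 and 0 CPM in control organoids against 6.58 to 43.2 CPM in control tissue. The log2 fold changes ran from -0.94 ± 0.56 in ethanol jejunum (edgeR adjusted p = 0.163) to -0.17 ± 0.64 in control jejunum (edgeR adjusted p = 0.876). Per2 was called lower in ethanol jejunum by limma-voom with sample weights (-1.11, limma adjusted p = 0.00660) and with only the groups compared (-1.03, edgeR adjusted p = 0.0201). It was also called lower in control colon without control organoid library 1, when the organoids are at 0 (edgeR adjusted p = 0.0142).

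Nr1d1 and Nr1d2, the REV-ERB receptors that repress Arntl, were called in different comparisons of organoids with tissue, and no test compared them with each other. Nr1d1 was at 27.3, 16.4, 22.4 and 26.2 CPM in ethanol jejunum organoids, against 18.1, 28.9, 11.2 and 8.28 CPM in ethanol jejunum tissue. It was at 20.8, 31.3, 17.4 and 15.9 CPM in control jejunum organoids, against 18.9, 32.1 and 87.4 CPM in control jejunum tissue. Among these controls tissue library 3 stood far above the organoids, and tissue library 2 just above the highest of them. The fall of 1.39 on the log2 scale (SE 0.56, edgeR adjusted p = 0.0383) in control jejunum rested on that library: without it the value was -0.41 (edgeR adjusted p = 0.652), and the call held in 8 of 17 alternatives, being lost also without control jejunum organoid library 1, 3 or 4 (edgeR adjusted p = 0.0668 to 0.0860). The other 3 comparisons did not pass, with 0.15 ± 0.64 in ethanol colon, -1.11 ± 0.69 in control colon and 0.21 ± 0.52 in ethanol jejunum (edgeR adjusted p = 0.883, 0.193 and 0.763). In control colon, where the organoids held 6.88 and 45.2 CPM, Nr1d1 was called lower without organoid library 2 (-2.75, edgeR adjusted p = 0.0286).

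Nr1d2 was at 40.3, 50.9, 59.3 and 50.3 CPM in ethanol jejunum organoids, against 10.001, 34.0, 10.8 and 13.4 CPM in ethanol jejunum tissue, with the ranges apart. There it rose by 1.26 ± 0.43 (edgeR adjusted p = 0.0164), a call lost without ethanol tissue library 1 (1.08, edgeR adjusted p = 0.0557) or library 3 (1.09, edgeR adjusted p = 0.0581). Control jejunum organoids held 59.9, 61.2, 71.3 and 65.0 CPM, against 24.7, 13.1 and 60.9 CPM in control jejunum tissue, which did not pass (0.64 ± 0.48, edgeR adjusted p = 0.271); without tissue library 3 it did (1.49, edgeR adjusted p = 0.0333). In control colon organoids, at 11.3 and 39.1 CPM against 38.1, 44.1, 151 and 82.0 CPM in tissue, Nr1d2 fell by 2.01 (SE 0.60, edgeR adjusted p = 0.00880), a call lost without organoid library 1 (-1.37, edgeR adjusted p = 0.143). Ethanol colon organoids, at 50.6 and 49.1 CPM, lay within the 34.1 to 70.3 CPM of ethanol colon tissue (-0.12 ± 0.52, edgeR adjusted p = 0.881).

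Dbp and Tef encode transcription factors of the PAR bZIP family, which carry the rhythm to output genes through D-boxes. Tef was at 141 and 136 CPM in ethanol colon organoids, against 30.9, 43.0, 33.3 and 28.6 CPM in ethanol colon tissue. It was at 60.1, 62.6, 85.0 and 82.6 CPM in ethanol jejunum organoids, against 17.6, 21.8, 21.2 and 14.5 CPM in ethanol jejunum tissue. The ranges were far apart in both. Tef rose by 2.06 ± 0.44 in ethanol colon (edgeR adjusted p = 0.000912) and by 1.66 ± 0.39 in ethanol jejunum (edgeR adjusted p = 0.000863), and both calls held under all 15 and all 17 alternatives. Control jejunum organoids, at 56.2, 68.8, 75.9 and 68.7 CPM, overlapped the 9.44, 17.5 and 68.2 CPM of control tissue through tissue library 3 (0.77 ± 0.44, edgeR adjusted p = 0.140, and without that library 2.20, edgeR adjusted p = 0.000305). Control colon organoids held 24.1 and 73.3 CPM, against 27.7, 15.0, 53.5 and 27.2 CPM in control colon tissue (0.35 ± 0.49, edgeR adjusted p = 0.585).

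Dbp was at 13.2, 10.05, 11.2 and 15.4 CPM in ethanol jejunum organoids, against 0.48, 1.06, 0.65 and 0.92 CPM in ethanol jejunum tissue. It rose there by 3.60 ± 0.77 (edgeR adjusted p = 0.000286, called under all 17 alternatives). Control jejunum organoids held 11.6, 14.2, 9.86 and 11.7 CPM, all above the 0, 0 and 6.62 CPM of control tissue, but the comparison did not pass (1.92 ± 0.86, edgeR adjusted p = 0.0621; without tissue library 3, when the tissue is at 0, edgeR adjusted p = 0.00241). In colon it was at 17.6 and 17.1 CPM in ethanol organoids, against 6.14, 6.34, 5.39 and 6.01 CPM in ethanol tissue (1.56 ± 0.75, edgeR adjusted p = 0.108). Control colon organoids held 30.0 and 0 CPM, against 3.94, 2.83, 13.4 and 8.32 CPM in control colon tissue (1.05 ± 0.76, edgeR adjusted p = 0.266). The control colon value was called in opposite directions with 1 organoid library left out, higher without library 2 (1.95, edgeR adjusted p = 0.0203) and lower without library 1, when the organoids are at 0 (edgeR adjusted p = 0.0207).

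Gm129 (Ciart), the repressor whose window holds the 3 E-boxes shown above, was the scarcest of the genes in tissue. It was at 5.50, 10.5, 5.60 and 6.11 CPM in ethanol jejunum organoids, against 0, 0, 0.22 and 0.13 CPM in ethanol jejunum tissue. It was at 4.79, 6.37, 5.51 and 5.65 CPM in control jejunum organoids, against 0, 0 and 1.32 CPM in control jejunum tissue. Every jejunum organoid library stood above every jejunum tissue library. Gm129 rose by 5.40 ± 0.89 with ethanol (edgeR adjusted p = 1.46e-05) and by 3.05 ± 1.01 in controls (edgeR adjusted p = 0.0133; 0.0688 without control tissue library 1). Each tissue side rested on 2 counts. The ratio of pooled CPM was 63.6 with a 95% exact counting interval of 17.2 to 532 for ethanol, and 9.86 with 2.66 to 82.5 for controls. In colon it was at 3.16 and 1.49 CPM in ethanol organoids, against 0 to 1.17 CPM in ethanol tissue (1.70 ± 0.86, edgeR adjusted p = 0.128). Neither control colon organoid library held a count of it, and control colon tissue, at 0.28 to 1.42 CPM, had a pooled level of 0.65 CPM, under the 1.05 CPM that 0 counts over both organoid libraries allow, so that no fold is given.

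Counted over the genes, 2 rose and 2 fell in ethanol colon organoids against tissue, where 14.9% and 18.7% of all 15034 genes tested were called higher and lower. In control colon 0 rose and 3 fell, against 16.5% and 28.6% of all genes. In ethanol jejunum 5 rose and 2 fell, against 22.7% and 30.8%, and in control jejunum 3 rose and 3 fell, against 24.2% and 27.6%. Organoids and tissue differed in a large share of all genes, so that these counts alone do not set the clock genes apart. The ranges of the 2 groups were apart for 7 of 10 in ethanol jejunum (5 higher, 2 lower), where they were apart for 54.2% of all genes, and for 6 of 10 in control jejunum (4 higher, 2 lower), against 53.7%. The median log2 fold change of the 10 genes was 0.06 in ethanol colon, -0.78 in control colon, 1.12 in ethanol jejunum and 0.71 in control jejunum, beside -0.18, -0.34, -0.16 and 0 over all genes. These fold changes carry edgeR's TMM scaling. The markers of smooth muscle, endothelium and fibroblasts moved with the same contrast (fibroblast and matrix markers, 6 genes, summed to 0 to 116 CPM in organoids, against 479 to 2776 CPM in colon tissue and 70.1 to 394 CPM in jejunum tissue), and their part in the result was not tested.

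**Figure D2:**
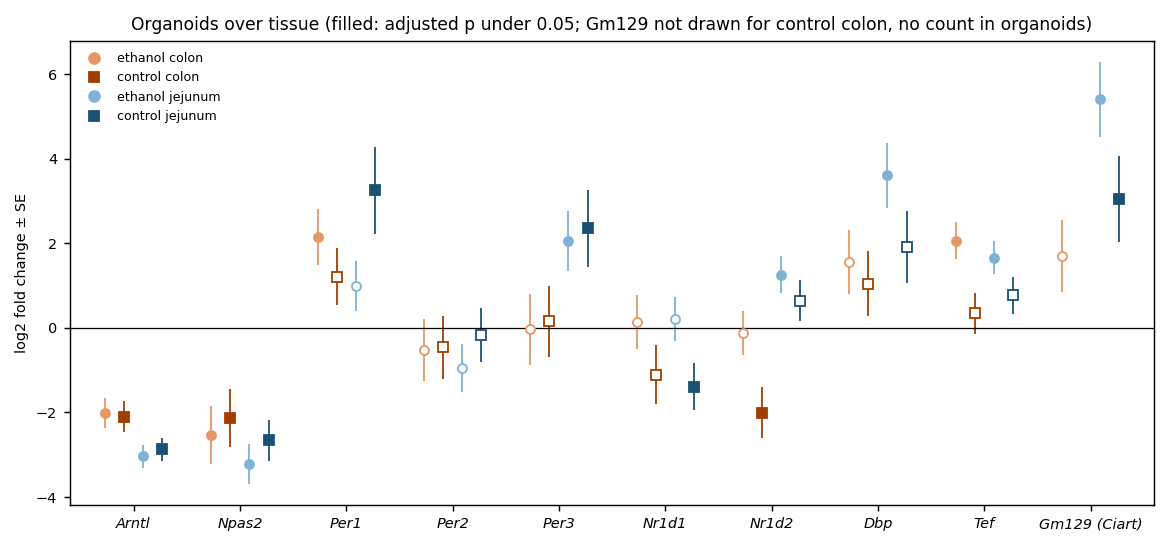
Log2 fold change of each clock gene in organoids over tissue of the same segment and diet, with its SE, from the edgeR fit of all 27 libraries; filled marks have an adjusted p under 0.05, and Gm129 is not drawn for control colon, where the organoids held no count. Arntl and Npas2 lie at -2.01 to -3.21 in all comparisons, while Tef and Dbp lie above 0 in all of them. The marks of Tef are filled in both ethanol comparisons alone, and that of Dbp in ethanol jejunum alone.

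The balance of the loop within a library was described by the log2 ratio of the summed CPM of Arntl and Npas2 to that of the 8 genes they activate, with 1 CPM added to each sum. Apart from the 1 CPM added, a change of scale between libraries leaves this ratio as it is. It was -3.86 ± 0.45 in ethanol colon organoids and -2.95 ± 0.71 in control colon organoids (SD, n = 2 each), and -2.96 ± 0.31 and -2.96 ± 0.32 in ethanol and control jejunum organoids (n = 4 each). In tissue it was -0.86 ± 0.15 with ethanol and -1.09 ± 0.87 in controls for colon (n = 4 each), and 1.03 ± 0.57 with ethanol (n = 4) and 0.42 ± 1.11 in controls (n = 3) for jejunum. The 12 organoid libraries lay between -4.18 and -2.45, all below the 15 tissue libraries at -1.99 to 1.65. In colon the summed CPM of the 8 genes overlapped, at 112 to 304 in organoids and 106 to 334 in tissue. That of Arntl and Npas2 did not (9.33 to 47.7 against 75.9 to 110 CPM). In jejunum the 8 genes summed to 182 to 255 CPM in organoids and 59.5 to 254 CPM in tissue, overlapping through control tissue library 3. With the ratio of Arntl to Dbp alone, 1 CPM added to each, the split of the 12 organoid from the 15 tissue libraries did not hold. Control colon organoid library 2, with Dbp at 0, then stood at 4.67, above all colon tissue libraries at 1.78 to 4.23. The other organoid libraries, at -1.58 to 0.54, lay below all tissue libraries. Since no label gives the hour of collection, a difference in balance between kinds of sample or segments and a difference in that hour cannot be told apart.

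**Figure D3:**
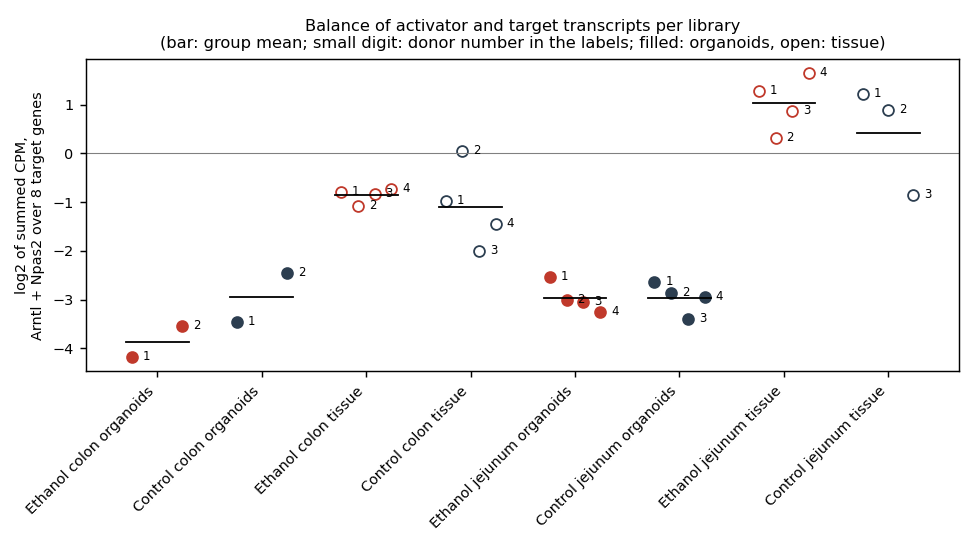
Log2 ratio of the summed CPM of Arntl and Npas2 to the summed CPM of the 8 other clock genes in every library; filled points are organoids, open points tissue, bars group means, and digits the donor numbers of the labels. Organoid libraries reach up to -2.45 and tissue libraries down to -1.99, with control tissue library 3 the lowest of its group in both segments.

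Control tissue libraries numbered 3 stood out in both segments. Nr1d1 was at 80.1 CPM in control colon tissue library 3, against 12.1 to 54.8 CPM in the other 3 libraries, and at 87.4 CPM in control jejunum tissue library 3, against 18.9 and 32.1 CPM. Nr1d2 (151 and 60.9 CPM), Dbp (13.4 and 6.62 CPM) and Tef (53.5 and 68.2 CPM) were also highest in these libraries within their groups, and Arntl (48.6 and 74.2 CPM) was lowest. Npas2, the other activator, was lowest in neither. It was at 34.6 CPM in the colon library, in a group of 27.2 to 39.6 CPM. In the jejunum library it was at 66.9 CPM, in a group of 55.5 to 87.1 CPM. The balance was -1.99 in the colon library, against -1.45 to 0.05 in the others, and -0.85 in the jejunum library, against 1.23 and 0.89. Per2, at 6.58 CPM, was lowest in the colon library of its group, so that not all target genes moved together. The 5 adipocyte markers summed to 497 CPM in the colon library, against 43.5 to 148 CPM in the other control colon tissue libraries. In the jejunum library they summed to 465 CPM, between the 202 and 587 CPM of the other control libraries. The 6 immune markers summed to 176 CPM in the colon library, within the 108 to 226 CPM of the other control libraries. In control jejunum tissue library 3 they summed to 1587 CPM, against 134 and 94.9 CPM in the other control libraries. In ethanol jejunum tissue they summed to 1202 to 2695 CPM, where Nr1d1 was at 8.28 to 28.9 CPM. The part of either marker list in these levels was not tested.

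Between segments, Arntl and Npas2 stood lower in colon tissue than in jejunum tissue under both diets. Arntl averaged 58.6 ± 9.38 CPM in ethanol colon tissue and 102 ± 30.8 CPM in ethanol jejunum tissue, and 56.0 ± 9.98 CPM in control colon tissue (n = 4) and 91.2 ± 15.1 CPM in control jejunum tissue (SD, n = 3). The ranges were apart in controls and met in ethanol, where 1 jejunum library at 68.6 CPM lay below a colon library at 70.3 CPM. Npas2 averaged 29.5 ± 5.59 CPM in ethanol colon tissue and 82.7 ± 18 CPM in ethanol jejunum tissue, and 33.0 ± 5.33 CPM in control colon tissue and 69.8 ± 16.0 CPM in control jejunum tissue, with the ranges apart in both diets. The log2 fold change of colon over jejunum tissue was -1.41 ± 0.24 with ethanol and -1.19 ± 0.26 in controls for Arntl (edgeR adjusted p = 0.000118 and 0.00150), and -2.08 ± 0.25 and -1.60 ± 0.27 for Npas2 (edgeR adjusted p = 3.16e-06 and 0.000144). All 4 calls held under all 16 alternatives.

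The scaling bears on the size of these values. TMM factors ran from 0.780 to 1.33 over the tissue libraries, lower in jejunum, and the median log2 fold change of all genes between colon and jejunum tissue was 0.11 with ethanol and 0.24 in controls with TMM, against 0.70 and 0.76 with library sizes alone. Arntl was still lower in colon with library sizes alone, by -0.80 with ethanol and -0.70 in controls, its smallest values under any setting. Of all genes called, 51.3% were higher in colon with ethanol and 54.6% in controls with TMM, against 77.1% and 76.7% with library sizes alone. Rn45s moved with the segment as well (18.3 to 43.0% of counts in colon tissue, against 53.4 to 84.3% in jejunum tissue), and its part in the result was not tested.

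The target genes called went the other way. Per3 rose in colon tissue over jejunum tissue with ethanol (13.4, 12.1, 6.47 and 5.27 against 0.95, 1.59, 3.24 and 3.02 CPM), by 1.35 ± 0.55 (edgeR adjusted p = 0.0484, called in 7 of 16 alternatives), and in controls by 1.95 ± 0.72 (edgeR adjusted p = 0.0355, called in 10 of 16). Single libraries ended both calls: the ethanol one was lost without ethanol colon tissue library 1, 2 or 3 or ethanol jejunum tissue library 1, 2 or 4 (1.15 to 1.54, edgeR adjusted p = 0.0509 to 0.114), and the control one without control colon tissue library 1 or 3 or control jejunum tissue library 1 or 2 (1.32 to 1.96, edgeR adjusted p = 0.0652 to 0.138). Dbp rose in ethanol colon tissue, at 5.97 ± 0.41 CPM, over ethanol jejunum tissue, at 0.78 ± 0.26 CPM (SD, n = 4 each), by 2.25 ± 0.73 (edgeR adjusted p = 0.0164, called under all 16 alternatives). In controls it did not pass (0.91 ± 0.83, edgeR adjusted p = 0.393; without control jejunum tissue library 3, when that group is at 0, edgeR adjusted p = 0.00792).

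Per1 rose in control colon tissue over control jejunum tissue, by 3.36 ± 1.14 (edgeR adjusted p = 0.0242), on 278 counts against 3 counts. The ratio of pooled CPM was 17.9 with a 95% exact counting interval of 6.07 to 87.5, and the call was lost without control colon tissue library 4 (edgeR adjusted p = 0.0509) or control jejunum tissue library 1 or 3 (2.69 and 2.64, edgeR adjusted p = 0.107 and 0.111). With ethanol it did not pass (0.49 ± 0.67, edgeR adjusted p = 0.570). Per2, Nr1d1, Nr1d2 and Tef passed in neither diet (edgeR adjusted p = 0.0985 to 0.827). Among them Per2 (-0.97 with ethanol and -0.94 in controls) and Nr1d1 (-0.18 and -0.66) had the sign of Arntl, as did Tef in controls (-0.63). Nr1d2 (1.09 with ethanol and 0.67 in controls) and Tef with ethanol (0.26) had the opposite sign. Per2 was called lower in control colon tissue, the direction of Arntl, without control colon tissue library 1 (-1.82, edgeR adjusted p = 0.0100, against -0.94 with it). For Nr1d2 with ethanol the ranges were apart, at 34.1 to 70.3 CPM in colon tissue and 10.001 to 34.0 CPM in jejunum tissue (1.09 ± 0.53, edgeR adjusted p = 0.0985), and without ethanol jejunum tissue library 2 it was called (1.66, edgeR adjusted p = 0.0181). In all, 2 of the 9 genes tested rose and 2 fell with ethanol, against 24.8% and 23.6% of all 13405 genes, and 2 rose and 2 fell in controls, against 23% and 19.2%. Gm129 was too scarce to be tested in tissue.

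In organoids the segments were compared in controls. Per1 was at 15.7 and 64.8 CPM in colon organoids, against 8.47 to 12.8 CPM in jejunum organoids (1.55 ± 0.46, edgeR adjusted p = 0.0149), and the call was lost without control colon organoid library 2 (0.34, edgeR adjusted p = 0.495). Nr1d2, at 11.3 and 39.1 CPM against 59.9 to 71.3 CPM, fell by 1.77 (SE 0.37, edgeR adjusted p = 0.00228). Its value was -2.75 without control colon organoid library 2 and -1.18 without library 1. Gm129, with 0 counts in colon organoids, was at least 5.25-fold lower there, counting 0 as 3 counts over the group, and passed the test (edgeR adjusted p = 0.00105). Arntl did not differ by the test, at 9.33 and 24.4 CPM in control colon organoids and 13.1 to 16.7 CPM in control jejunum organoids (-0.17 ± 0.40, edgeR adjusted p = 0.753). Tef, at 24.1 and 73.3 CPM in control colon organoids and 56.2 to 75.9 CPM in control jejunum organoids, did not pass (-0.85 ± 0.33, edgeR adjusted p = 0.0511), and was called lower without control colon organoid library 2 (-1.73, edgeR adjusted p = 0.000203). Nr1d1 did not pass either (-0.15 ± 0.56, edgeR adjusted p = 0.847), and was called lower without that library (-1.87, edgeR adjusted p = 0.00766). Npas2, Per2, Per3 and Dbp, each at 0 in 1 colon organoid library, had values of -0.74 ± 0.997, -0.99 ± 0.77, -0.02 ± 0.97 and 0.25 ± 0.76 and did not pass (edgeR adjusted p = 0.311 to 1). With the library above 0 left out, all 4 were called lower (edgeR adjusted p = 0.000270 to 0.000708), and Dbp was called higher without the library at 0 (1.09, edgeR adjusted p = 0.0156). Thus 1 gene rose and 2 fell, against 23.8% and 25.6% of all 13170 genes.

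The log2 fold change of organoids over tissue is called the organoid effect here, whatever its cause. Its difference between the segments, colon minus jejunum, was tested in controls for each gene. It was negative and called for Nr1d2 (-2.65 ± 0.76, edgeR adjusted p = 0.00714; -2.0 and 0.0745 without control colon organoid library 1) and for Gm129 (edgeR adjusted p = 0.0135; 0.0694 without that library), whose fitted size depends on the group with no count. None was called higher. Over all genes 25.6% were called lower and 14.9% higher. For Arntl the difference was 0.77 ± 0.44 (edgeR adjusted p = 0.166; 1.29 and 0.0269 without control colon organoid library 1), so that a larger fall of Arntl in the jejunum was not established.

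The effect of the diet on the clock was the comparison closest to the design of the study. In colon tissue none of the 9 genes tested passed, where edgeR called 1 of 13405 genes (0.00746%) and 336 had an unadjusted p under 0.05. Arntl was at 47.6 to 70.3 CPM in ethanol colon tissue and 48.6 to 70.7 CPM in control colon tissue (0.01 ± 0.24, edgeR adjusted p = 1). The largest difference was that of Nr1d1, at 14.6, 22.6, 23.4 and 25.8 CPM with ethanol and 12.1, 23.5, 80.1 and 54.8 CPM in controls (-1.01 ± 0.57, edgeR adjusted p = 1). The values with ethanol lay within the range of the controls. The other 7 genes had values of -0.20 ± 0.25 for Npas2, -0.60 ± 0.64 for Per1, 0.53 ± 0.53 for Per2, -0.65 ± 0.50 for Per3, -0.56 ± 0.51 for Nr1d2, -0.28 ± 0.61 for Dbp and 0.11 ± 0.44 for Tef (edgeR adjusted p = 1 for each).

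In jejunum tissue 0 of 9 passed as well, where edgeR called 0 of 13405 genes (0%) and 1462 had an unadjusted p under 0.05 (DESeq2 called 31 genes, none of them a clock gene). Nr1d1, at 18.1, 28.9, 11.2 and 8.28 CPM with ethanol and 18.9, 32.1 and 87.4 CPM in controls, was the only clock gene with an unadjusted p under 0.05 (-1.49 ± 0.64, edgeR adjusted p = 0.405). Tef was at 14.5 to 21.8 CPM with ethanol and 9.44, 17.5 and 68.2 CPM in controls (-0.78 ± 0.50, edgeR adjusted p = 0.611), and Nr1d2 and Dbp at -0.98 ± 0.59 and -1.63 ± 0.94 (edgeR adjusted p = 0.582 and 0.555). In each of these genes control library 3 was above all ethanol libraries, and for Nr1d1 control library 2 was as well. Without control library 3 the value was -0.48 for Nr1d1, -0.12 for Nr1d2 and 0.66 for Tef, and that of Dbp turned positive, the controls then being at 0 (edgeR adjusted p = 0.480 to 0.970). Per1 had the highest value, 2.28 ± 1.20 (edgeR adjusted p = 0.509), on 88 counts with ethanol and 3 in controls, a pooled ratio of 5.79 with a 95% exact counting interval of 1.92 to 28.6. Arntl was at 68.6 to 134 CPM with ethanol and 74.2 to 103 CPM in controls (0.23 ± 0.26, edgeR adjusted p = 0.812), and Npas2, Per2 and Per3 had values of 0.28 ± 0.27, 0.57 ± 0.61 and -0.05 ± 0.77 (edgeR adjusted p = 0.767 to 0.992).

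In jejunum organoids 0 of 10 passed, as did 0 of 13170 genes (0%), with 150 genes at an unadjusted p under 0.05. The levels were close: 10.7 ± 2.75 CPM with ethanol and 10.5 ± 1.83 CPM in controls for Per1, 12.5 ± 2.35 and 11.9 ± 1.78 CPM for Dbp, and 72.6 ± 13.0 and 67.4 ± 8.21 CPM for Tef (SD, n = 4 each). The log2 fold changes of Arntl, Npas2, Per2, Per3, Nr1d1 and Gm129 were 0.05 ± 0.31, -0.29 ± 0.72, -0.21 ± 0.58, -0.35 ± 0.75, 0.11 ± 0.43 and 0.30 ± 0.44 (edgeR adjusted p = 1 for each). For Nr1d2 every ethanol library, at 40.3 to 59.3 CPM, lay below every control library, at 59.9 to 71.3 CPM, a difference of -0.37 ± 0.26 on the log2 scale that did not pass (edgeR adjusted p = 1).

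**Figure D4:**
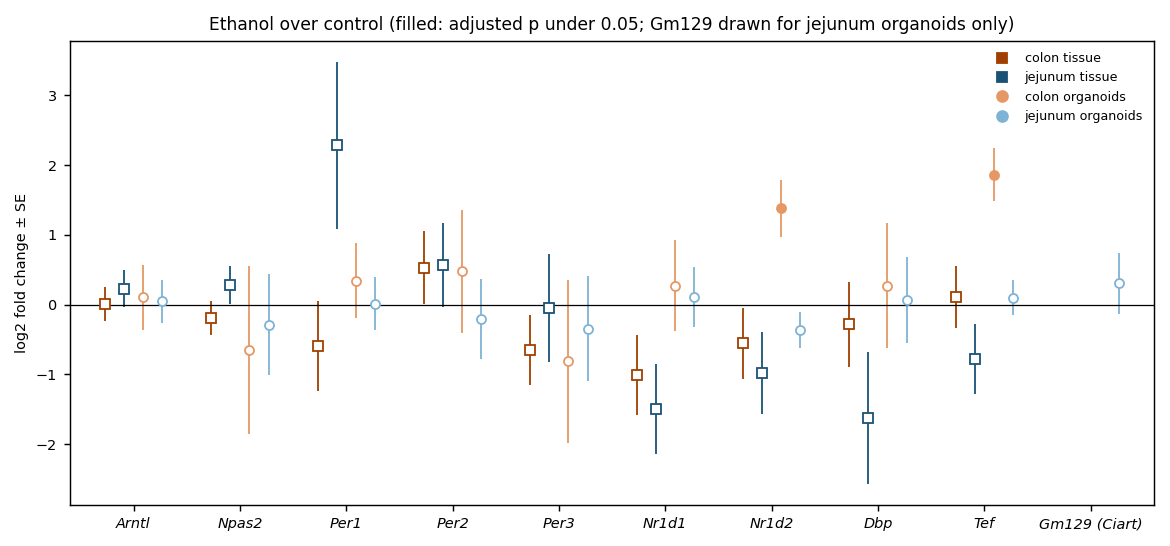
Log2 fold change of each clock gene in ethanol over control libraries, with its SE, for tissue (squares) and organoids (circles) of each segment; filled marks have an adjusted p under 0.05, and Gm129 is drawn for jejunum organoids alone. Nr1d2 and Tef in colon organoids are the marks past the threshold, and all tissue marks are open.

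In colon organoids 3 of 10 rose with ethanol and 0 fell, against 12.4% and 4.74% of all 13170 genes. Tef was at 141 and 136 CPM with ethanol and 24.1 and 73.3 CPM in controls (1.86 ± 0.38, edgeR adjusted p = 0.00718). Nr1d2 was at 50.6 and 49.1 CPM with ethanol and 11.3 and 39.1 CPM in controls (1.38 ± 0.41, edgeR adjusted p = 0.0372). Gm129, at 3.16 and 1.49 CPM with ethanol and without a count in controls, was at least 2.50-fold higher, counting 0 as 3 counts over the group (edgeR adjusted p = 0.0189). These calls rest on 2 libraries a group and on a spread estimated together with the jejunum organoids. Tef kept its call in 10 of 12 alternatives, with 1.3 without control library 1 and 2.69 without control library 2. Nr1d2 kept it in 4 of 12 and lost it without control library 1 (0.74, edgeR adjusted p = 0.0606), ethanol library 1 (1.32, edgeR adjusted p = 0.0962) or ethanol library 2 (1.44, edgeR adjusted p = 0.0792). Gm129 lost it without control library 1 (edgeR adjusted p = 0.0627) or ethanol library 1 (edgeR adjusted p = 0.111). With limma-voom and sample weights none of the 10 was called, and with the 4 colon organoid libraries fitted alone none of the genes that then passed the filter was, Gm129 not being among them. The median of the 10 genes was 0.30, beside 0.15 over all genes. Some marker lists were higher with ethanol and others overlapped. The 6 immune markers summed to 477 and 128 CPM with ethanol and 89.9 and 41.6 CPM in controls, with Cd3e and Cd79a at 0 in all 4 libraries. The 5 markers of neurons and glia summed to 20.4 and 54.3 CPM with ethanol and 7.37 and 17.1 CPM in controls. Epithelial markers (10564 and 10891 against 6863 and 9395 CPM) and endothelial ones (1.76 and 10.4 against 0.98 and 0 CPM) were higher as well. Fibroblast and matrix (19.7 and 17.8 against 19.6 and 116 CPM) and smooth muscle markers (14.4 and 26.8 against 0.98 and 34.2 CPM) overlapped. So did adipocyte markers (2.46 and 8.92 against 5.89 and 0 CPM). The part of the marker lists in the result was not tested.

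The other 7 genes did not pass in colon organoids. Arntl was at 13.0 and 15.6 CPM with ethanol and 9.33 and 24.4 CPM in controls (0.10 ± 0.47, edgeR adjusted p = 0.918), and Per1 at 34.8 and 45.3 CPM with ethanol and 15.7 and 64.8 CPM in controls (0.34 ± 0.54, edgeR adjusted p = 0.720). In Npas2, Per2, Per3 and Dbp a control library at 0 stood beside one above both ethanol libraries. Calls there appeared with 1 control library left out: Per2 and Dbp higher and Per3 lower without library 1 (edgeR adjusted p = 0.00318, 0.000413 and 0.0167), and Npas2, Per3, Per1 and Nr1d1 higher without library 2.

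The diet effect was also compared between segments and between kinds of sample. Colon minus jejunum, it was called for 0 of 9 genes in tissue, as for 0 of 13405 genes (0%; 856 at an unadjusted p under 0.05). In organoids it was called higher for Nr1d2 (1.75 ± 0.48, edgeR adjusted p = 0.0425), Tef (1.77 ± 0.45, edgeR adjusted p = 0.0309) and Gm129 (edgeR adjusted p = 0.0474, its size not bounded since the controls held no count), and lower for none, against 7.56% and 2.08% of all genes. The 3 calls held in 4, 8 and 4 of 19 alternatives, with adjusted p up to 0.738, and leaving out any single library of the 12, except control colon organoid library 2, put at least 1 of them above 0.05. Organoids minus tissue, the diet effect was called for 0 of 10 genes in jejunum, as for 0 of 15034 (0%; 821 at an unadjusted p under 0.05), and for 0 of 10 in colon, where 12.7% of all genes were called; there 4 were called without control colon organoid library 2 and 1 without library 1.

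Of 11 further core clock genes, 1 of 10 tested rose and 4 fell in ethanol jejunum organoids, and 1 rose and 4 fell in control jejunum organoids. Of all genes, 22.7% rose and 30.8% fell in ethanol jejunum and 24.2% and 27.6% in control jejunum, so that these counts are near the background. Among the genes called, Cry1 and Cry2 fell under both diets. Cry2, a cryptochrome that represses the loop with the PER proteins, averaged 11 CPM in ethanol jejunum organoids and 34.7 CPM in ethanol jejunum tissue (-1.94 ± 0.47, edgeR adjusted p = 0.00109), and 11 CPM in control organoids and 44.5 CPM in control tissue (-2.27 ± 0.51, edgeR adjusted p = 0.000521). Cry1 averaged 31.2 CPM in ethanol organoids and 91.0 CPM in ethanol tissue (-1.84 ± 0.39, edgeR adjusted p = 0.000291), and 31.0 and 92.4 CPM in controls (-1.76 ± 0.42, edgeR adjusted p = 0.00106). Clock itself rose, at 57.5 CPM in ethanol organoids and 20.2 CPM in ethanol tissue (1.22 ± 0.27, edgeR adjusted p = 0.000449) and 57.1 and 27.4 CPM in controls (0.93 ± 0.31, edgeR adjusted p = 0.0148), against the direction of Arntl. The control call was lost without control jejunum tissue library 1 (0.74, edgeR adjusted p = 0.0936) or library 3 (0.67, edgeR adjusted p = 0.120). In ethanol colon 2 of 10 rose and 2 fell, where 14.9% and 18.7% of all genes did, and in control colon 1 rose and 1 fell, against 16.5% and 28.6%.

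Of 10 output genes of the clock, 4 rose and 3 fell in ethanol jejunum organoids, 5 rose and 3 fell in control jejunum, 4 and 2 in ethanol colon and 1 and 2 in control colon, to be read against the same shares of all genes. Usp2, a deubiquitinase with a strong daily rhythm in many tissues, fell in all 4 comparisons, with 11.8 CPM in organoids and 62.7 CPM in tissue of ethanol colon (-2.44 ± 0.42, edgeR adjusted p = 9.10e-05) and 33.1 and 138 CPM in ethanol jejunum (-2.33 ± 0.29, edgeR adjusted p = 2.39e-07). Tsc22d3, a target of glucocorticoids, also fell in all 4, with 50.4 CPM in organoids and 263 CPM in tissue of ethanol jejunum (-2.66 ± 0.37, edgeR adjusted p = 1.07e-06). Nampt, which makes the precursor of NAD, rose in ethanol jejunum organoids (205 and 53.6 CPM in organoids and tissue, 1.63 ± 0.19, edgeR adjusted p = 5.85e-08). A list of 9 genes was headed clock protein turnover, but it includes Nono, Tipin and Timeless and is not limited to turnover. Of these 9, 4 rose and 2 fell in ethanol jejunum, and 2 rose and 1 fell in control jejunum. In ethanol colon 2 rose and 2 fell, and in control colon 4 rose and 3 fell, beside the same shares. In jejunum organoids, further rises among the 3 lists were those of Nono (2.37 ± 0.25 in ethanol and 2.73 ± 0.29 in control jejunum), Tipin (2.28 ± 0.43 and 3.23 ± 0.57), Dtx4 (1.38 ± 0.35 and 1.57 ± 0.41) and, in control jejunum, Lonrf3 (1.89 ± 0.60). Csnk1e, a kinase that acts on PER proteins, rose in colon organoids (1.96 ± 0.27 in ethanol and 1.5 ± 0.27 in control colon), as did Pim3 in control colon (2.12 ± 0.36), and Timeless fell in control colon (-2.98 ± 0.71). These calls held with any 1 library left out, though without control organoid library 1 Timeless was at 0 in control colon organoids. The fall of Usp2 in control colon rested on 2 counts in organoids, a pooled ratio of tissue over organoids of 85.75 with a 95% exact counting interval of 23.7 to 709. Other calls in colon rested on single libraries. Rorb was at 4.57 and 32.0 CPM in ethanol organoids and at 0 and 39.1 CPM in control organoids. Its ethanol rise (4.60 ± 1.23) was lost without ethanol organoid library 2 (2.69, edgeR adjusted p = 0.212), and its control value (5.13 ± 1.3) without control organoid library 2 (edgeR adjusted p = 0.419). In ethanol colon the calls of Bhlhe41, a repressor that binds E-boxes (2.96 ± 0.88), and Tspan4 (2.33 ± 0.68) were lost without ethanol organoid library 1 (edgeR adjusted p = 0.412 and 0.0580), and that of Tipin (-1.52 ± 0.56) without ethanol organoid library 2 or ethanol tissue library 1 or 2 (edgeR adjusted p = 0.0759 to 0.291). In control colon that of Nono (0.76 ± 0.28) was lost without control organoid library 1 or control tissue library 3 or 4 (edgeR adjusted p = 0.0573 to 0.603). Under the diet 3 genes of these lists rose in colon organoids. Usp2 was at 8.09 and 15.6 CPM with ethanol and 0.98 and 0 CPM in controls (4.21 ± 0.77, edgeR adjusted p = 0.00435), on 44 and 2 counts, a pooled ratio of 15.0 with a 95% exact counting interval of 3.91 to 128. Timeless was at 12.7 and 14.9 CPM with ethanol and 2.46 and 0 CPM in controls (3.26 ± 0.67, edgeR adjusted p = 0.00740), and both calls held with any 1 library left out, though without control library 1 the controls were at 0. Fkbp5 was at 224 and 204 CPM with ethanol and 81.5 and 64.8 CPM in controls (1.78 ± 0.46, edgeR adjusted p = 0.0205), a call lost without either ethanol library (edgeR adjusted p = 0.0703 and 0.0529). None of the 3 lists held a call in the other 3 comparisons of ethanol with control.

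Between segments the further core genes had 2 called higher and 4 lower in ethanol colon tissue over jejunum tissue, and 0 higher and 4 lower in control tissue, where 24.8% and 23.6% of all genes were called with ethanol and 23% and 19.2% in controls. The output genes Tsc22d3 (-2.20 ± 0.26 with ethanol and -1.97 ± 0.27 in controls) and Por (-2.22 ± 0.41 and -1.79 ± 0.43), an electron donor of cytochromes P450, fell, as did Usp2 in controls (-1.58 ± 0.31). Fkbp5, a chaperone of steroid receptors, rose (2.80 ± 0.46 with ethanol and 3.23 ± 0.59 in controls), as did Nono (1.54 ± 0.25 and 1.41 ± 0.29), Tipin (1.02 ± 0.32 and 1.48 ± 0.41), Hlf with ethanol (2.11 ± 0.58), the third PAR bZIP factor beside DBP and TEF, and Lonrf3 in controls (1.17 ± 0.44). The Lonrf3 call held in 2 of 7 fits with 1 library left out, and that of Tipin in controls was lost without control jejunum tissue library 3 (1.13, edgeR adjusted p = 0.0566). In control organoids 4 core genes were called higher in colon over jejunum and 2 lower, against 23.8% and 25.6% of all genes. The 4 higher ones rested on control colon organoid library 2. Rora, Rorb, Bhlhe41 and Hlf were at 42.8, 39.1, 28.1 and 34.2 CPM in that library and at 0, 0, 0.98 and 0 CPM in control colon organoid library 1, and averaged 0.06, 0.05, 0.17 and 1.04 CPM in control jejunum organoids. Without library 2 the calls of Rorb, Bhlhe41 and Hlf were lost (edgeR adjusted p = 0.185 to 0.760) and Rora no longer passed the filter. Usp2, Timeless and Tsc22d3 fell (-5.62 ± 0.70, -3.59 ± 0.62 and -2.94 ± 0.70), and were called lower also with any 1 library left out.

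Some of the counts may be shared with a neighbour, since the strand used in counting is not given. Nr1d1 (chr11:98767932-98775333, minus strand) overlaps Thra, a thyroid hormone receptor gene on the other strand, by 263 exon bases at their 3′ ends. Thra was at 31.2 to 81.5 CPM in tissue and 37.8 to 67.8 CPM in jejunum organoids. In colon organoids it was at 20.8 and 22.5 CPM with ethanol and at 0 and 1.96 CPM in controls, where Nr1d1 was at 6.88 and 45.2 CPM. Dbp (chr7:45705088-45710203, plus strand) shares 539 exon bases with Sphk2 on the other strand, which averaged 75.6 CPM in ethanol jejunum organoids and 134 CPM in ethanol jejunum tissue, a fall (-1.12 ± 0.19, edgeR adjusted p = 1.41e-05) where Dbp rose. Tef overlaps an antisense gene, Gm17597, by 193 exon bases.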

How the data were processed

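The authors deposited raw counts per gene for 27 libraries (Lexogen QuantSeq 3′ mRNA-Seq, per the labels' protocols). Per the submitters' processing notes, Trimmomatic 0.32, BWA, HTSeq, limma and edgeR were used and the build was mm10; settings and the strand of counting are not given in the sources used here. The authors' normalized table was not used. Rn45s was left out, and CPM is per 1000000 counts outside it. Reads carry no molecular identifiers, so that intervals and floors cover counting error only.

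Tests used edgeR 4.0.16 in R 4.3.3: TMM, filterByExpr by group, a robust quasi-likelihood fit with its F-test, Benjamini-Hochberg adjustment over all genes kept (13405 in the 15 tissue libraries, 13170 in the 12 organoid libraries, 15034 in all 27), called at an adjusted p under 0.05. The SE of an edgeR log2 fold change was computed as its absolute value over the square root of the F statistic. It is therefore not a fitted standard error, and is least reliable where a group is near 0. The fits were tried on simulated data for ethanol against control in jejunum tissue and for control jejunum organoids against tissue alone. Comparisons of colon organoids were not tried in this way. Alternatives were DESeq2 1.42.0 as a test and for its size factors, limma-voom (limma 3.58.1) with sample weights, no filter, Rn45s kept, the donor number as a block, the compared groups alone and each library left out. The genes and lists were chosen with earlier results of these data known. All 10 genes are named in every comparison of a pair of groups, those not called in a test of a difference of effects are given by count, and of the other clock lists every call under ethanol and up to 4 of the largest changes in each direction per comparison with a mean of at least 5 CPM. Cry1, Clock, Thra and Sphk2 were named after their values were seen. Some genes that these rules name are not reported here. Genes most like Dbp were not listed, since Dbp is below 5 CPM. Gene coordinates are from GENCODE vM21 on GRCm38 (mm10), and promoter windows from RefSeq.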

Additional observations from a re-analysis of the deposited data

Results flagged for a closer look

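In 4 of 50 sets of a gene in a group of 4, 1 library stood apart from the others of its group by more than a common limit for single outlying values, which chance passes in about 1 in 20 groups. Per2 was at 39.9 CPM in control jejunum organoid library 2, where the others held 18.03 to 18.4 CPM, and at 43.2 CPM in control colon tissue library 1, where the others held 6.58 to 11.4 CPM. Nr1d2 was at 34.0 CPM in ethanol jejunum tissue library 2, against 10.001 to 13.4 CPM in the others. Gm129 was at 10.5 CPM in ethanol jejunum organoid library 2, against 5.50 to 6.11 CPM in the others.

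The effect of ethanol differed between segments in organoids by a test of the difference itself, colon minus jejunum, for Nr1d2 (1.75 on the log2 scale, edgeR adjusted p = 0.0425), Tef (1.77, edgeR adjusted p = 0.0309) and Gm129 (a fitted value of 5.80, edgeR adjusted p = 0.0474). The log2 fold change of organoids over tissue in controls differed in the same way for Nr1d2 (-2.65, edgeR adjusted p = 0.00714) and Gm129 (a fitted value of -7.34, edgeR adjusted p = 0.0135). All 5 include the 2 control colon organoid libraries, in which Gm129 had no count, so that its fitted sizes are no measure of the change.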

How the results depend on the processing

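Among 2676 values of single genes under alternative settings, 2336 kept their direction and their side of the threshold, 120 lost a call, 57 gained one, 153 moved in sign without a call and 10 reversed with one. All 10 reversals left out 1 control colon organoid library. The 2 values without library 1 and without library 2 were -8.43 and 1.09 for Dbp in colon over jejunum control organoids, and -7.68 and 1.95 for Dbp in control colon organoids over tissue. In the same order, ethanol in colon organoids gave -1.85 and 7.14 for Npas2 and -1.85 and 8.00 for Per3. The segment difference of that effect gave -1.57 and 7.42 for Npas2 and -1.51 and 8.34 for Per3, and its difference from colon tissue -1.68 and 7.37 for Npas2 and -1.25 and 8.68 for Per3. Per3 in control colon organoids over tissue gave 1.23 and -8.71, and Npas2 for the organoid effect between segments 1.78 and -7.28. Values beyond 7 in size come from a remaining control library at 0 and depend on the prior count.

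Counts of clock genes called moved as follows, and the cause was not tested. With limma-voom and sample weights 0 were called for ethanol in colon organoids (3 in the report), for its difference between segments in organoids (3), between segments in control organoids (3), in control colon organoids over tissue (3) and for the organoid effect between segments (2). With only the groups compared the first of these became 0, and control colon organoids over tissue 1. In organoids, the segment difference of the ethanol effect gave 1 without the filter on low counts and 0 with library sizes alone. With 1 library left out, the counts were 1 to 7 for ethanol in colon organoids, 0 to 7 for its difference between segments, 3 to 7 between segments in control organoids, 3 to 6 in control colon organoids over tissue, 3 to 7 in control jejunum organoids over tissue, 2 to 4 between segments in control tissue, 2 to 4 for the organoid effect between segments and 0 to 4 for the ethanol effect in organoids minus colon tissue. Library sizes alone, and fits without the control colon organoids or the control tissue libraries numbered 3, were chosen after seeing the data. All-gene calls ranged from 0 (limma-voom) to 5881 for ethanol in colon organoids, where the report has 2251. With library sizes alone the share of calls that were higher was 55.5% there, against 72.3% with TMM; 60% against 78.4% for its difference between segments; 59.1% against 73.7% for its difference from colon tissue; 58.3% against 48.2% between segments in control organoids; and 52.7% against 42.4% in ethanol jejunum organoids over tissue.

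The donor numbers were not taken to pair libraries: deviations of same-numbered libraries correlated at -0.11 to 0.12 between control colon and jejunum tissue, at -0.17 to 0.32 between ethanol and control jejunum organoids and at -0.08 to 0.59 between ethanol and control colon tissue. Every library correlated best with its own number between ethanol and control jejunum tissue (3 of 3, at 0.08 to 0.12) but in no other pair of groups with at least 3 numbers. With the donor number as a replicate block, 2 clock genes were called between segments in control tissue (4 in the report), 1 for ethanol in colon organoids, 0 for its difference between segments, 0 between segments in control organoids and 1 for the organoid effect between segments. In control jejunum organoids over tissue Tef and Dbp were called with it (edgeR adjusted p = 0.0179 and 0.0394) and Nr1d1 and Per3 were not (0.140 and 0.0563); between segments in ethanol tissue Nr1d2 was called (0.00921) and Per3 was not (0.128). Depth limits Gm129, Per1 and Dbp in jejunum tissue, where 1 count was worth up to 1.46 CPM.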

Other observations

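Among the genes whose level over the 15 tissue libraries was most like that of Arntl, by Pearson correlation of log2(CPM + 1) after subtracting the mean of each group, were Kansl1l, which encodes a relative of a chromatin regulator (r = 0.86, Spearman rho = 0.87) and Tank, an adaptor of TRAF signalling (r = 0.85, rho = 0.87), among 11045 genes with a mean of at least 5 CPM. The most opposite were Psmd4, a proteasome subunit (r = -0.86, rho = -0.83), Emc1, a subunit of the membrane protein insertase of the endoplasmic reticulum (r = -0.86, rho = -0.84), and Slfn2 (r = -0.84, rho = -0.80). These are the extremes of many genes over few libraries that share depth and Rn45s content, and are a description.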
